A study of Mus musculus with 25 samples.

Results

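The genes of oxidative phosphorylation were followed across 5 murine melanoma cell lines. Members were chosen by gene symbol: the nuclear genes starting with Nduf (without the Ndufaf assembly factors), Uqcr, Cox4i, Cox5, Cox6, Cox7, Cox8 or Atp5, the genes Sdha to Sdhd, and the protein-coding genes of the mitochondrial chromosome, with symbols ending in -ps left out. This rule found 103 of 55385 genes, of which 90 lie on nuclear chromosomes and 13 on the mitochondrial chromosome. By symbol, the nuclear members belong to complex I (39 genes), complex II (4), complex III (8), complex IV (21) and complex V (18), and the mitochondrial members to complex I (7), complex III (1), complex IV (3) and complex V (2). Ndufa4 and Ndufa4l2 are counted here with complex IV, and Cox7a2l, a factor of respiratory supercomplexes, and Atp5s, the coupling factor B, are included because their symbols match.

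The libraries are bulk RNA-seq of cultured cells, with 5 biological replicates of each line and without drug treatment, harvested at a confluency of 50%. WT31 carries Tyr::NrasQ61K and INK4a-/-, with the oncogene driven by the tyrosinase promoter. RET comes from a melanoma of MT/RET transgenic mice, in which the metallothionein promoter drives RET, and B16F10 luc2 is a purchased luciferase-expressing line for which the labels name no driver. D4M carries Tyr::CreER, BrafCA and Ptenlox/lox, so that its alleles were set by Cre under the tyrosinase promoter, and HCmel12 comes from a primary melanoma of HGF-CDK4(R24C) mice. WT31 and RET were grown in RPMI with 10% serum, HCmel12 in RPMI with 10% serum plus Hepes, β-mercaptoethanol, pyruvate and non-essential amino acids, and D4M in Advanced DMEM/F-12 with 5% serum, while the labels give no medium for B16F10 luc2. The study's methods give this line the same medium as WT31 and RET. Each genotype is represented by a single line, so that driver, line and, for D4M and HCmel12, medium cannot be told apart. In the paper WT31, B16F10 luc2 and RET form HIM-melanoma (high and intermediate metastatic to the liver) and D4M and HCmel12 form LM-melanoma (low metastatic).

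Oxidative phosphorylation takes electrons from NADH at complex I and from succinate at complex II, passes them through ubiquinone, complex III and cytochrome c to oxygen at complex IV, and uses the proton gradient so built to make ATP at complex V. Complex II is encoded by nuclear genes alone, whereas the other complexes are built from subunits of both genomes. The nuclear subunits are transcribed one gene at a time from many chromosomes, and the mitochondrial genes are transcribed together as long precursors that are cut into single RNAs. In melanoma the coactivator PGC-1α (Ppargc1a), which can be induced by the melanocyte factor Mitf, is known to raise the expression of mitochondrial genes.

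Sums of estimated counts lay between 24199083 and 25843286 per library, and log2 expression correlated at 0.9785 or more within a line and at 0.948 or less between lines. The summed level of 8 melanocyte markers (Mitf, Sox10, Pax3, Tyr, Tyrp1, Dct, Pmel, Mlana) lay between 12256 and 30377 CPM (counts relative to library totals scaled with TMM factors) in the libraries of WT31, B16F10 luc2, RET and HCmel12, and between 26.7 and 82.3 CPM in D4M. All 8 markers were lowest in D4M, where Tyr was at 0.205 CPM and Mitf at 6.38 CPM. Of 6 fibroblast markers, the summed level was 480.1 to 736 CPM in D4M and at most 102 CPM in any library of the other lines. Leukocyte (6 genes) and epithelial markers (5 genes) stayed at or below 16.7 and 15.4 CPM summed, with Ptprc and Epcam near 0 in every line, and the endothelial list (5 genes) reached 39.1 CPM in HCmel12 through Kdr alone. D4M therefore differs from the other lines in its melanocyte and fibroblast markers as well as in the genes described here, and their part in the results was not tested. In bulk RNA, fewer cells that express a gene and less RNA of it per cell cannot be told apart.

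The nuclear members took the smallest share of RNA in D4M. TPM, a level scaled by transcript length, were summed over the 90 nuclear members. WT31 had sums of 27928, 29395, 29623, 29175 and 31362 TPM and HCmel12 had sums of 29368, 30467, 28186, 28789 and 29841 TPM in replicates 1 to 5. B16F10 luc2 had 33479, 32979, 33962, 34467 and 32052 TPM and RET had 32667, 32796, 30259, 31016 and 32085 TPM. The 4 D4M libraries with TPM values, replicates 2 to 5, had 18872, 18183, 17687 and 18186 TPM and lay below every library of the other lines, whereas WT31, HCmel12 and RET overlapped with each other and RET also with B16F10 luc2. The mean sums were 29496 ± 1232 TPM in WT31, 33388 ± 929 TPM in B16F10 luc2, 31765 ± 1096 TPM in RET, 18232 ± 487 TPM in D4M and 29330 ± 888 TPM in HCmel12 (SD, n = 5, and n = 4 in D4M). In relation to D4M these means were 1.62-fold (WT31), 1.83-fold (B16F10 luc2), 1.74-fold (RET) and 1.61-fold (HCmel12) higher. In summed CPM, which are scaled with TMM factors and not divided by transcript length, the same ratios were 1.27, 1.57, 1.52 and 1.41. As shares of the library count, with neither TMM scaling nor division by length, they were 1.48, 1.75, 1.75 and 1.6.

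The 13 mitochondrial members followed another order. Their summed TPM was 140503, 120440, 127803, 106909 and 89908 in WT31, 88554, 77733, 89097, 78374 and 62609 in B16F10 luc2, and 90987, 65643, 89530, 109608 and 95428 in RET. D4M had sums of 101133, 96722, 123773 and 85561 TPM and HCmel12 had 120618, 83787, 97294, 156991 and 94636 TPM. In TPM, B16F10 luc2 lay below WT31 without overlap and all other pairs of lines overlapped, and HCmel12 replicate 4 stood above all other libraries. In summed CPM B16F10 luc2 replicate 3 (39838) lay above WT31 replicate 5 (36733), and as a share of the library count these libraries had 3.98% and 3.85%, so that B16F10 luc2 and WT31 overlapped on both scales. The means were 117112 ± 19472 TPM in WT31, 79273 ± 10765 TPM in B16F10 luc2, 90239 ± 15876 TPM in RET, 101797 ± 16049 TPM in D4M and 110665 ± 29169 TPM in HCmel12.

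**Figure D1:**
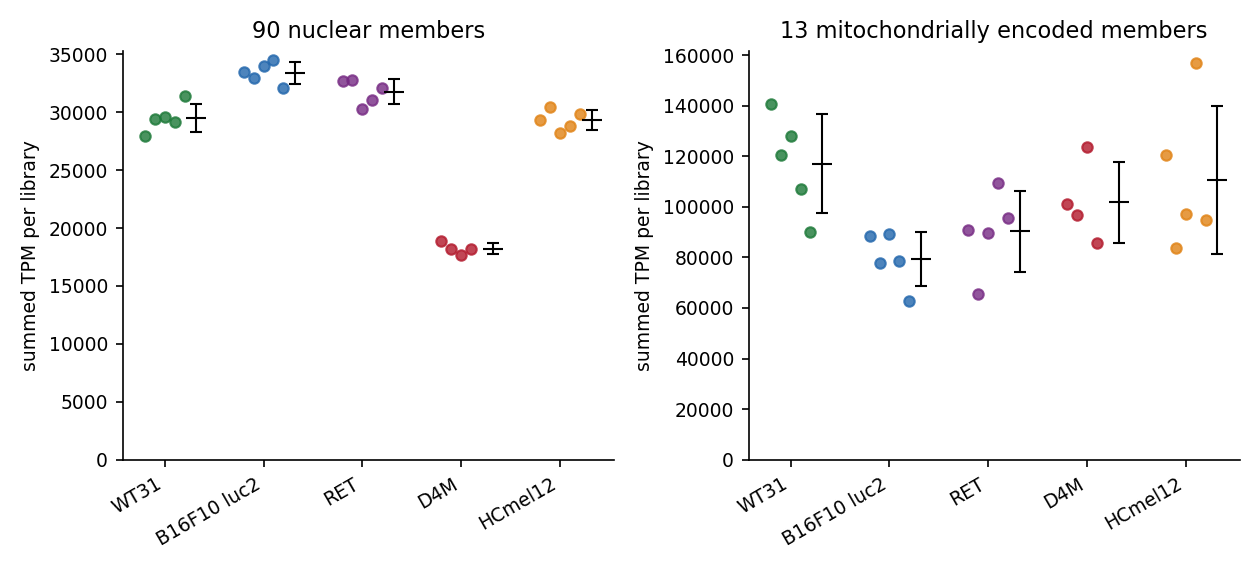
Summed TPM of the 90 nuclear members (left) and the 13 mitochondrial members (right) per library, by line. Points are libraries, black dashes and bars are the mean ± SD. The D4M libraries lie below the other lines for the nuclear members, between 17687 and 18872 TPM, but in the range of the other lines for the mitochondrial members.

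The balance of the genomes, taken as the mitochondrial sum over the nuclear sum in TPM, was 5.36, 5.32, 7.0 and 4.70 in D4M and 2.65, 2.36, 2.62, 2.27 and 1.95 in B16F10 luc2. RET had ratios of 2.79, 2.00, 2.96, 3.53 and 2.97, WT31 of 5.03, 4.10, 4.31, 3.66 and 2.87, and HCmel12 of 4.11, 2.75, 3.45, 5.45 and 3.17. D4M and B16F10 luc2 therefore did not overlap, while WT31 and HCmel12 overlapped with both D4M and RET. The mean ratios were 5.60 ± 0.98 in D4M, 3.99 ± 0.80 in WT31, 3.79 ± 1.05 in HCmel12, 2.85 ± 0.55 in RET and 2.37 ± 0.28 in B16F10 luc2. In counts, the mitochondrial members took between 2.59% and 7.40% of a library. Whether polyadenylated RNA was selected is not stated in the sources used here, so this share is a property of these libraries.

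Of the 103 members, 93 passed the filter on low counts, 80 nuclear and all 13 mitochondrial ones. The 10 members that did not pass were the processed pseudogenes Ndufa11b, Ndufs6b and Cox6c2, the isoform genes Cox4i2, Cox6b2, Cox7a1, Cox7b2, Cox8b and Cox8c, and a second entry of Atp5o. A test over the 5 lines (limma's F test with Benjamini-Hochberg adjustment over 15247 tested genes) called 89 of the 93 members, all 80 nuclear and 9 mitochondrial ones, beside 96.8% of all tested genes. Thus nearly every gene differed between some of these lines, and the members' share is near this background. The members differed less in size: the range of the 5 line means had a median of 0.72 (log2) over the nuclear members and 0.69 over the mitochondrial members, compared with 1.41 over all tested genes.

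The direction lay further from the background than the calls did. D4M was the lowest line for 65 of the 80 tested nuclear members (81.2%), while it was the lowest line for 26.4% of all tested genes and for none of the 13 mitochondrial members. By complex, D4M was lowest for 29 of 37 genes of complex I, 2 of 4 of complex II, 6 of 8 of complex III, 12 of 14 of complex IV and 16 of 17 of complex V. B16F10 luc2 was the highest line for 38 nuclear members, HCmel12 for 17, RET for 15, WT31 for 9 and D4M for 1, Ndufa8. The shares of all tested genes highest in each line are not given here, so these counts cannot be set against a background. The order of the lines still differed between members, with 30 different orders among the 80 genes, the most frequent being B16F10 luc2, RET, HCmel12, WT31 and D4M from high to low (13 genes). The 80 genes lie on 19 chromosomes with at most 6 on any one of them.

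**Figure D2:**
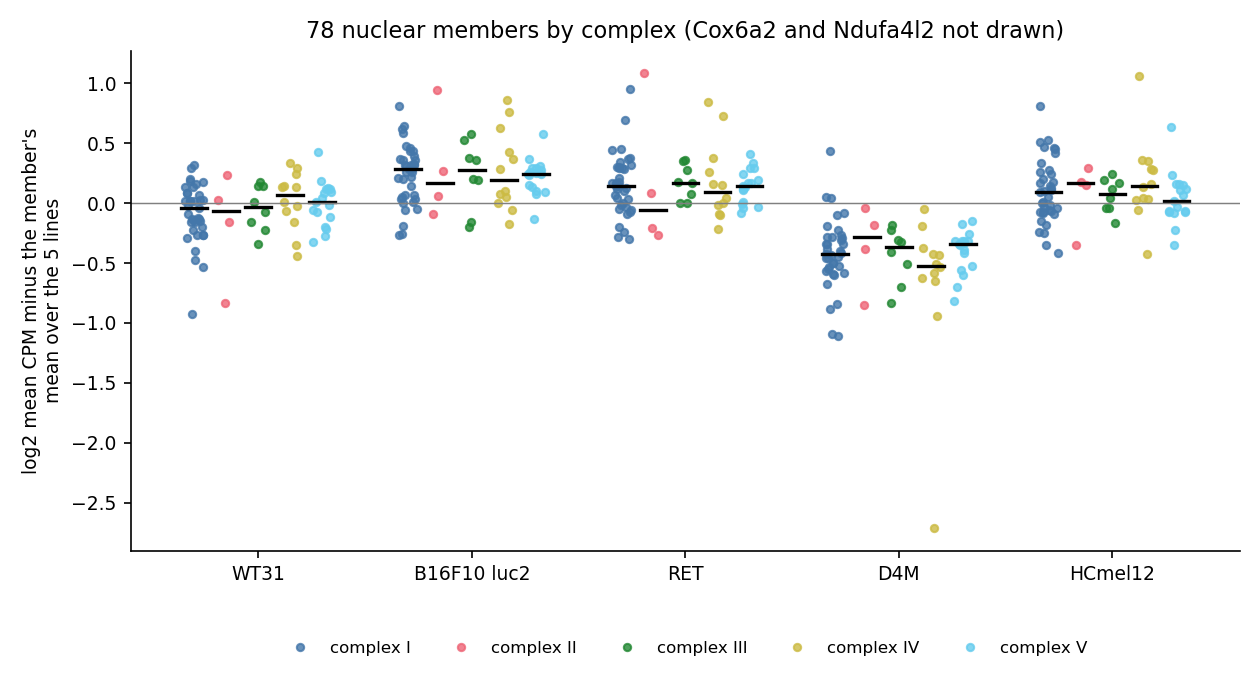
Tested nuclear members by complex (78 of 80, without the scarcely expressed Cox6a2 and Ndufa4l2), each drawn as its log2 mean CPM in a line minus its mean over the 5 lines. Points are genes and black bars are medians. In D4M the median lies below 0 in each complex, and Ndufa4 in complex IV is the lowest point.

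The comparisons with D4M had the largest medians. In relation to D4M, WT31 had a median log2 fold change of 0.39 over the nuclear members, with 67 of 80 called higher and 4 lower (limma, adjusted p under 0.05), where 37.5% of all tested genes were called higher and 38.6% lower, together 76.1%. B16F10 luc2 had a median of 0.63 with 70 called higher and 3 lower (background 38.8% and 38.9%, together 77.7%), and RET a median of 0.57 with 67 called higher and 5 lower (38.8% and 38.3%, together 77.1%). D4M in relation to HCmel12 had a median of -0.47 with 2 called higher and 71 lower (36.8% and 35.7%, together 72.5%). The medians over all tested genes were within 0.01 of 0 in these fits. Members lower than D4M were few: Ndufa8 in all 3 lines of HIM-melanoma, Cox6a2 in WT31 and RET, Ndufab1 and Uqcrc2 in WT31, Ndufa2 and Ndufs8 in B16F10 luc2, Ndufa7, Cox7a2l and Sdha in RET, and Ndufa8 and Ndufab1 in HCmel12. Ndufa2, Ndufa7, Ndufa8 and Ndufs8 were named after their values were seen. All 4 comparisons share the D4M libraries.

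A total of 54 of the 80 nuclear members were called lower in D4M than in each of the other 4 lines, compared with 15.7% of all tested genes. These were 24 of complex I, 1 of complex II (Sdhd), 6 of complex III, 10 of complex IV and 13 of complex V. Transcripts of the nuclear members are short, with a median effective length 0.23 times that of all tested genes. This length was taken as counts per TPM, also for the deciles used below. After log2 values were centred within deciles of transcript length in each library, the median was 0.42 for WT31, 0.46 for B16F10 luc2 and 0.35 for RET in relation to D4M and -0.29 for D4M in relation to HCmel12, RET had 57 called higher and 11 lower, and 42 members (52.5%) were called lower in D4M than in each other line, beside 16.6% of all tested genes. With scaling by library size alone the median over all genes moved by 0.22, 0.15 and 0.21 for WT31, B16F10 luc2 and RET in relation to D4M and by -0.17 for D4M in relation to HCmel12, and the medians of the nuclear members were then 0.62, 0.79, 0.78 and -0.64.

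The other lines differed less from each other. B16F10 luc2 had a median of 0.19 in relation to HCmel12 with 46 nuclear members called higher and 21 lower (background 35.3% and 33.8%, together 69.1%), and RET had 0.03 (0.01 to 0.07 with single libraries left out, outermost without HCmel12 replicates 3 and 4) with 33 higher and 26 lower (34% and 33.3%, together 67.2%). B16F10 luc2 had a median of 0.08 in relation to RET with 31 higher and 9 lower (25.2% and 26.2%, together 51.5%). Without RET replicate 3 that median was 0.05. For WT31 the direction depended on the treatment of length. In relation to HCmel12 WT31 had a median of -0.09 with 15 higher and 33 lower (36.1% and 34.3%, together 70.4%), but 0.13 with 38 higher and 24 lower after centring by length and 0.07 on the log2(TPM + 1) scale. In relation to RET it had -0.11 with 14 higher and 39 lower (36.8% and 36.4%, together 73.2%), but 0.11 with 37 higher and 24 lower after centring by length, and -0.16 without RET replicate 3. In relation to B16F10 luc2 the median was -0.28 with 16 higher and 50 lower (36.4% and 36.4%, together 72.8%), and -0.03 with 29 higher and 33 lower after centring.

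B16F10 luc2 and RET were both called higher than each of WT31, D4M and HCmel12 for 20 of 80 nuclear members, beside 11% of all tested genes. After centring by length this held for 9 members (11.2%), beside 12.1% of all tested genes, so the members then lay near the background. The pattern was also found in 24 of 78 proteins of the mitochondrial ribosome and 12 of 46 assembly factors. The 20 genes are Ndufa5, Ndufa6, Ndufa9, Ndufa12, Ndufb4, Ndufb6, Ndufb7, Ndufb8, Ndufc2, Ndufs3, Ndufv2, Sdhb, Uqcr10, Uqcrc2, Cox6c, Cox7b, Atp5b, Atp5d, Atp5g3 and Atp5mpl, named in full after the count was known.

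**Figure D3:**
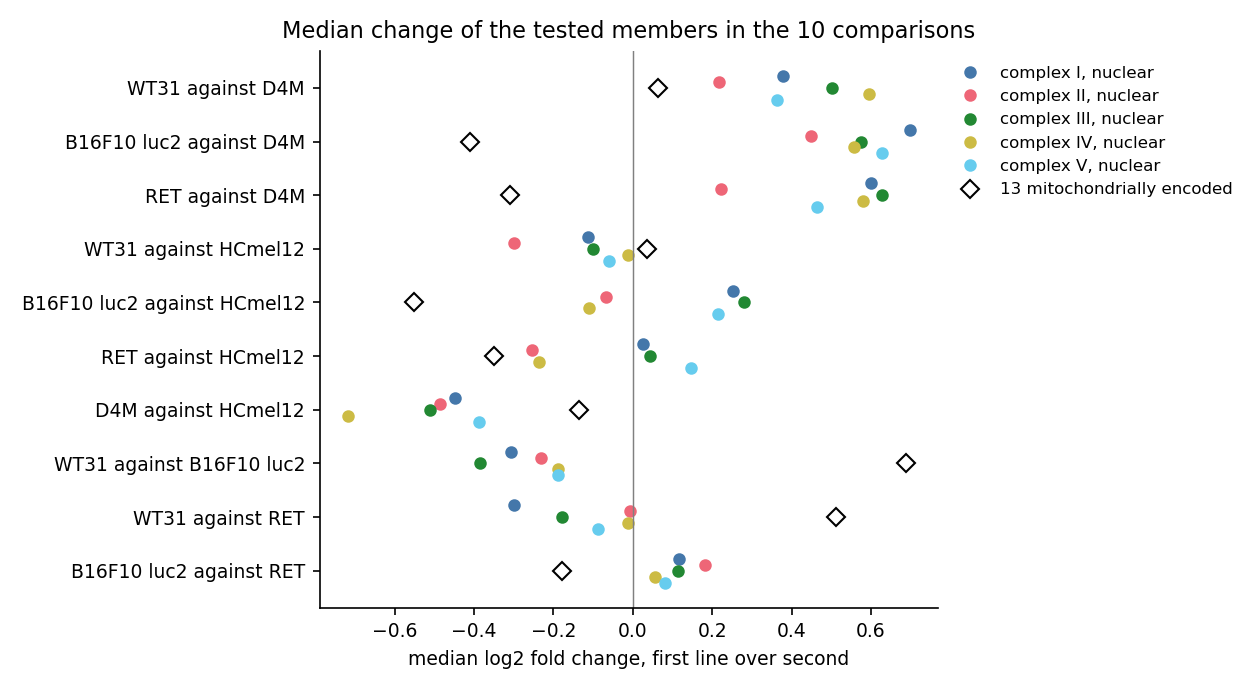
Median log2 fold change of the tested nuclear members of each complex and of the 13 mitochondrial members in the 10 comparisons of lines. Points are medians over genes. All 5 complexes lie above 0 for WT31, B16F10 luc2 and RET in relation to D4M, with medians of 0.39, 0.63 and 0.57 over all tested nuclear members, while the mitochondrial members lie at 0.06, -0.41 and -0.31.

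Complex I, the NADH dehydrogenase, was lower in D4M in most of its nuclear genes. Its median log2 fold change in relation to D4M was 0.38 in WT31 (29 of 37 called higher, 2 lower), 0.70 in B16F10 luc2 (32 and 3) and 0.60 in RET (30 and 2), and D4M lay at -0.45 in relation to HCmel12 (2 higher, 33 lower). Its summed level was 7760 ± 350 TPM in WT31, 9185 ± 239 TPM in B16F10 luc2, 8522 ± 274 TPM in RET, 5269 ± 170 TPM in D4M and 7799 ± 260 TPM in HCmel12. The widest range of line means belonged to Ndufb2 and Ndufa5, accessory subunits, and Ndufa9, which lies at the junction of the arms of the complex.

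Ndufa9 (chr6:126821721-126849136, minus strand) was at 59.8, 64.4, 63.6, 63.9 and 61.6 CPM in D4M and at 79.4, 82.3, 84.8, 81.4 and 88.3 CPM in WT31. HCmel12 had 95.0, 95.5, 98.5, 97.8 and 103 CPM, B16F10 luc2 181, 190.5, 181, 181 and 174 CPM, and RET 222, 218, 219, 229.8 and 229 CPM. The 5 lines did not overlap, and each neighbour in this order differed from the next (limma, adjusted p under 0.05). RET exceeded D4M by a log2 fold change of 1.83 (SE 0.04), that is 3.57-fold.

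Ndufa5 (chr6:24518666-24528013, minus strand) fell into separate levels. It was at 26.2, 28.4, 23.6, 23.1 and 26.8 CPM in D4M and at 27.1, 29.5, 29.1, 31 and 27.3 CPM in WT31, and these lines overlapped although the test called a log2 fold change of 0.17 between them (limma, adjusted p = 0.033). HCmel12 had 81.0, 77.6, 76.4, 70.7 and 84.9 CPM, RET 91.7, 83.5, 83.8, 84.5 and 98.5 CPM, and B16F10 luc2 100.4, 98.7, 92.8, 92.2 and 94.5 CPM, all far above WT31 and D4M. B16F10 luc2 exceeded D4M by 1.90 (SE 0.07, log2), or 3.74-fold.

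Ndufb2 was highest in HCmel12 with 64.0, 64.8, 63.4, 69.7 and 71.1 CPM and lowest in D4M with 17.4, 19.6, 15.1, 18.6 and 17.2 CPM. WT31 had 31.6, 35.3, 32.9, 30.05 and 33.0 CPM, B16F10 luc2 43.8, 42.6, 46.5, 48.0 and 38.8 CPM, and RET 50.3, 45.2, 41.6, 49.4 and 47.9 CPM. Only B16F10 luc2 and RET overlapped, and HCmel12 exceeded D4M by 1.93 (SE 0.08, log2), or 3.8-fold. The narrowest range belonged to Ndufab1, the mitochondrial acyl carrier protein, with line means between 91.4 ± 3.20 CPM in HCmel12 and 116 ± 7.37 CPM in RET (log2 fold change 0.34, limma, adjusted p = 1.48e-06).

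Ndufa8 was the only nuclear member highest in D4M, at 119.9 CPM on average compared with 66.7 CPM in HCmel12 (log2 fold change 0.84, SE 0.05) and 86.0 to 93.4 CPM in the other lines. Ndufb4 shares its transcript sequence with Ndufb4c, a processed pseudogene that is a tested member, so that their reads cannot be separated. The naming of Ndufb4 alone among the members higher in B16F10 luc2 and RET rests on the estimated split of these reads. Their summed level was 56.6 ± 1.21 CPM in D4M, 78.5 ± 4.33 CPM in WT31, 90.5 ± 5.85 CPM in HCmel12, 100.4 ± 9.48 CPM in RET and 107 ± 10.9 CPM in B16F10 luc2.

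Complex II, succinate dehydrogenase, had different orders of the lines for its catalytic subunits, with RET highest for Sdhb and lowest for Sdha. Sdhb, the iron-sulfur subunit (chr4:140961203-140979193, plus strand), was at 369, 370.2, 367, 355 and 335 CPM in B16F10 luc2 and at 416, 381, 371, 406 and 402 CPM in RET. D4M had 108, 110.3, 107, 99.2 and 94.1 CPM, WT31 102, 100.1, 103, 103 and 116 CPM, and HCmel12 139, 143, 138, 154 and 157 CPM. B16F10 luc2 and RET lay above all other libraries, and D4M and WT31 overlapped. RET exceeded D4M by 1.93 (SE 0.05, log2), or 3.82-fold, B16F10 luc2 exceeded D4M 3.47-fold, and WT31 and D4M differed by 0.02 (limma, adjusted p = 0.766).

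Sdha, the flavoprotein subunit, was lowest in RET with 202, 194, 205, 205 and 202 CPM and highest in WT31 with 298, 286, 273, 279.5 and 293 CPM. B16F10 luc2 had 227, 236, 223, 226 and 228 CPM, D4M 241, 236, 240.4, 223 and 236 CPM, and HCmel12 273, 268, 263, 270.1 and 272 CPM. RET did not overlap with any other line, whereas D4M overlapped with B16F10 luc2, and WT31 exceeded RET by 0.50 (SE 0.04, log2), or 1.42-fold. Of the membrane anchors, Sdhc lay between 132 ± 8.49 CPM in RET and 187 ± 14.3 CPM in HCmel12 (0.50, SE 0.06, log2) and Sdhd between 92.6 ± 5.24 CPM in D4M and 146 ± 6.88 CPM in B16F10 luc2 (0.65, SE 0.05).

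In complex III, the cytochrome bc1 complex, D4M was the lowest line for 6 of 8 genes. The median log2 fold change was 0.50 in WT31 (6 higher, 1 lower), 0.58 in B16F10 luc2 (8 and 0) and 0.63 in RET (8 and 0) in relation to D4M, and -0.51 for D4M in relation to HCmel12 (0 and 7). Uqcr10, a small subunit, was at 78.7, 75.4, 74.3, 70.4 and 67.0 CPM in D4M, 111, 128, 129, 125 and 124 CPM in WT31, and 114, 129, 116, 143 and 132 CPM in HCmel12. It was at 182, 171, 144, 168 and 171 CPM in RET and at 204, 182, 212, 206 and 168 CPM in B16F10 luc2. D4M lay below every other library, WT31 and HCmel12 overlapped, and B16F10 luc2 exceeded D4M by 1.41 (SE 0.07, log2), or 2.65-fold.

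Uqcrq, the subunit VII, followed with 84.6 ± 5.07 CPM in D4M and 199 ± 21 CPM in B16F10 luc2 (1.23, SE 0.08). Uqcrc2, a core subunit, was an exception with its lowest mean in WT31 (147 ± 5.35 CPM) and its highest in B16F10 luc2 (243 ± 9.65 CPM), a log2 fold change of 0.72 (SE 0.05). Uqcrb had the narrowest range, with means between 95.6 ± 3.38 CPM in D4M and 137 ± 6.70 CPM in B16F10 luc2 (0.52, SE 0.06), and 34.8% of its 31-base sequences are found elsewhere in the transcriptome.

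Complex IV, cytochrome c oxidase, held the gene with the largest fold change of the well expressed members. Ndufa4 (chr6:11900292-11907497, minus strand), once assigned to complex I and now counted with complex IV, was at 30.9, 35.8, 30.6, 32.9 and 31.1 CPM in D4M. WT31 had 201, 204, 211, 201 and 195 CPM, RET 389, 384, 344, 374 and 405 CPM, B16F10 luc2 409.6, 391, 390.2, 385 and 349 CPM, and HCmel12 466, 462, 410.5, 446 and 424 CPM. D4M and WT31 stood apart from each other and from the other lines, and RET overlapped with B16F10 luc2. HCmel12 exceeded D4M by 3.78 (SE 0.06, log2), or 13.7-fold (limma, adjusted p = 8.47e-26), and WT31, B16F10 luc2 and RET exceeded D4M 6.28-fold, 11.9-fold and 11.8-fold.

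The low level of Ndufa4 in D4M was of the same size on the TPM scale, with 110.4 ± 10.0 TPM in D4M compared with 800.2 ± 25.9 TPM in WT31, 1395 ± 64.1 TPM in RET, 1415 ± 59.6 TPM in B16F10 luc2 and 1585 ± 116 TPM in HCmel12. In these last 3 lines Ndufa4 was the second most abundant nuclear member per length after Atp5b. Only 2.21% of its 31-base sequences occur in transcripts of other genes. Its paralog Ndufa4l2 was scarce in all lines, at 0.814 ± 0.285 CPM in WT31 and at most 0.0445 CPM in any D4M library. Without Ndufa4, Ndufa4l2 and Cox7a2l the summed TPM of the nuclear members was still 1.53-fold higher in HCmel12 than in D4M.

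**Figure D4:**
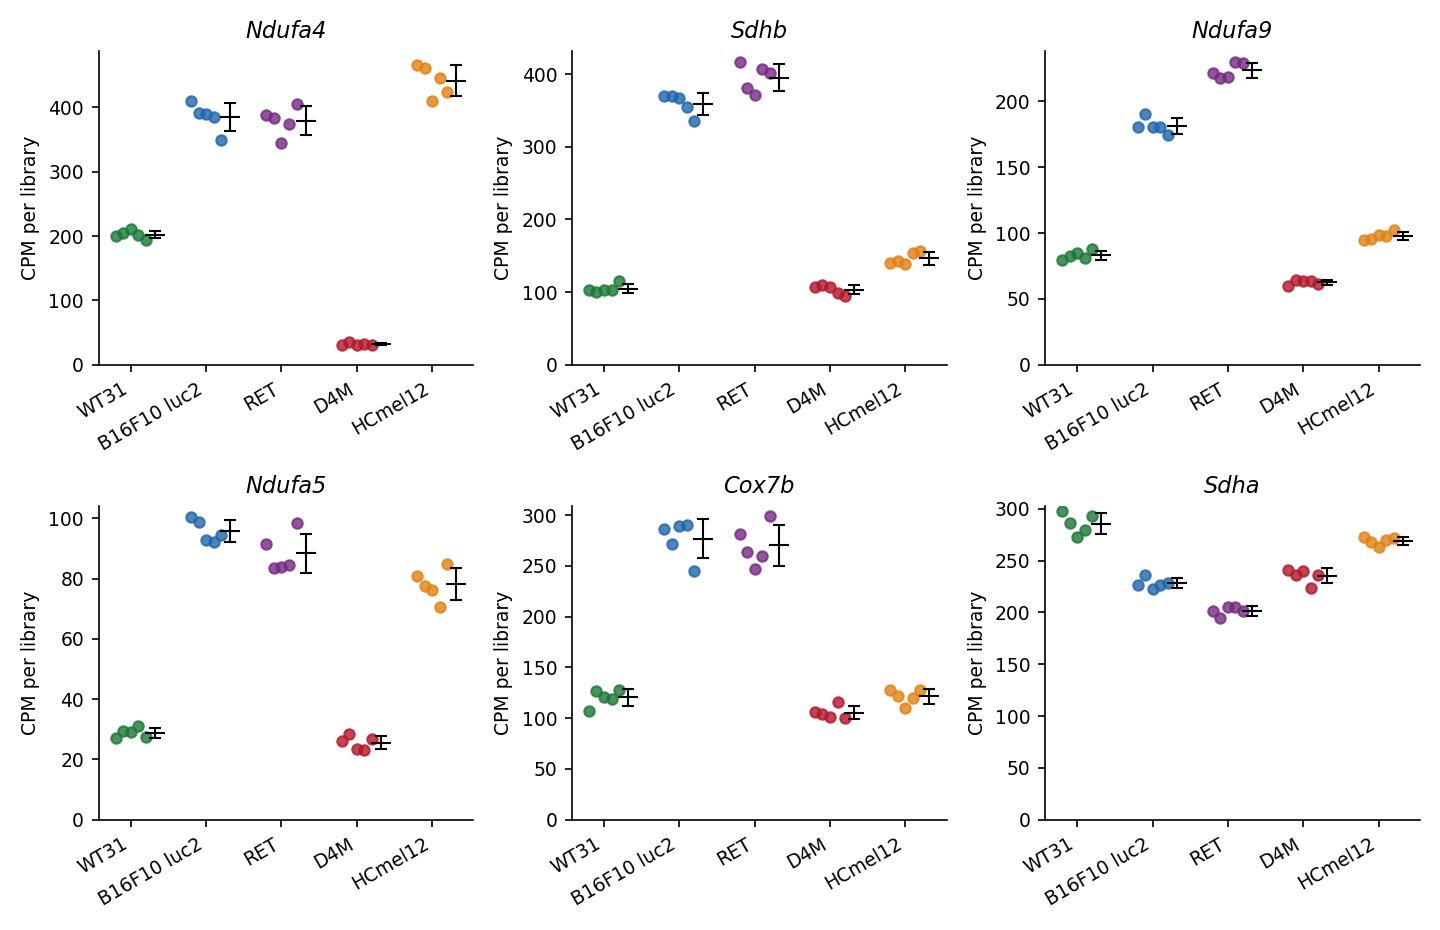
CPM per library of 6 nuclear members, Ndufa4, Sdhb, Ndufa9, Ndufa5, Cox7b and Sdha, by line. Points are libraries, dashes and bars the mean ± SD. Ndufa4 is lowest in D4M (30.6 to 35.8 CPM), Sdhb, Ndufa9 and Cox7b are highest in B16F10 luc2 and RET, and Sdha is lowest in RET.

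Over the tested nuclear genes of complex IV, the median log2 fold change in relation to D4M was 0.59 in WT31 (12 of 14 higher, 1 lower), 0.56 in B16F10 luc2 (11 and 0) and 0.58 in RET (11 and 2). D4M lay at -0.72 in relation to HCmel12 (0 higher, 13 lower), which was the largest median of any complex in this comparison. Cox5b, a subunit that binds zinc, was at 97.4 ± 9.47 CPM in D4M and at 289 ± 20.2 CPM in B16F10 luc2 (1.57, SE 0.07, 2.98-fold) and was named after its values were seen. Cox5a, which has the narrowest range of the complex, lay between 114 ± 4.22 CPM in D4M and 159 ± 8.53 CPM in B16F10 luc2 (0.47, SE 0.05).

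Subunits with several isoform genes were expressed from the ubiquitous isoform in every line. Cox4i1 was at 213 ± 11.8 CPM in D4M and 339 ± 20.4 CPM in WT31 (0.67, log2), while Cox4i2, the isoform of lung, had at most 2 counts in a library. Cox6a1 (0.78 for HCmel12 over D4M), Cox6b1 (0.59 for RET over D4M), Cox7a2 (1.08 for B16F10 luc2 over D4M) and Cox8a (0.89 for HCmel12 over D4M) were all lowest in D4M. Their partners Cox6b2, Cox7b2, Cox8b and Cox8c had at most 3 counts in any library, the amount taken as the floor here, and Cox7a1 had at most 13 counts. Cox6a2, the isoform of heart and muscle, had no count in WT31, 0.170 to 1.47 CPM in D4M and 0.401, 0.797, 1.5, 7.23 and 1.71 CPM in HCmel12, where replicate 4 stood apart.

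Cox7b, for which no second isoform was detected, had 287, 271, 289.5, 291 and 245 CPM in B16F10 luc2 and 282, 263, 247, 259.9 and 299 CPM in RET. In the other lines it had 106, 104, 101, 116 and 100.4 CPM (D4M), 107, 127, 121, 119 and 128 CPM (WT31) and 127, 122, 109.7, 120.3 and 127 CPM (HCmel12). These 3 lines overlapped and lay below B16F10 luc2 and RET, and B16F10 luc2 exceeded D4M by 1.39 (SE 0.06, log2), or 2.62-fold. Cox7a2l was highest in WT31 (155 ± 8.41 CPM) and lowest in RET (109 ± 4.74 CPM), a log2 fold change of 0.51.

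Complex V, the ATP synthase, had its lowest line in D4M for 16 of 17 tested genes. The median log2 fold change in relation to D4M was 0.36 in WT31 (17 higher, 0 lower), 0.63 in B16F10 luc2 (16 and 0) and 0.46 in RET (16 and 0), and D4M lay at -0.39 in relation to HCmel12 (0 and 14). Atp5b, the catalytic β subunit, was the most abundant nuclear member per length in every line, at 1274 ± 60.5 TPM in D4M and 2309 ± 68.7 TPM in RET. In CPM it was at 1525, 1482, 1441, 1494 and 1474 in D4M and at 2401, 2282, 2271, 2468 and 2437 in RET, which did not overlap (0.68, SE 0.04, log2). Atp5b was named after its values were seen.

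Atp5a1, the α subunit, had the narrowest range of the complex, with means between 806 ± 12.9 CPM in D4M and 960.0 ± 22.8 CPM in RET (0.25, SE 0.04). Atp5mpl, a small membrane subunit, had the widest, from 52.3 ± 3.11 CPM in D4M through 74.0 ± 4.61 CPM in WT31, 103 ± 4.38 CPM in HCmel12 and 123 ± 8.78 CPM in RET to 138 ± 9.18 CPM in B16F10 luc2, and each neighbour in this order was called. Atp5j2, the subunit f, was highest in HCmel12 at 227 ± 11.6 CPM and lowest in D4M at 102 ± 4.80 CPM (1.16, SE 0.06). Atp5e, the ε subunit, was highest in WT31 at 81.1 ± 5.77 CPM and lowest in D4M at 37.0 ± 4.20 CPM (1.14, SE 0.11).

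Subunit c, which forms the ring of the rotor, is encoded by Atp5g1, Atp5g2 and Atp5g3, which give the same mature protein. On the TPM scale Atp5g3 was the most abundant of them in WT31, B16F10 luc2 and RET, at 766, 795 and 804 TPM, and Atp5g1 in D4M and HCmel12, at 433 and 648 TPM. Atp5g1 (0.71 for RET over D4M, log2) and Atp5g3 (0.89 for RET over D4M) were lowest in D4M. Atp5g2 varied widely between replicates, for example 169 ± 51.3 CPM in RET, its lowest mean was 112 ± 25.9 CPM in HCmel12, and 40.2% of its 31-base sequences occur in transcripts of other genes.

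The promoters of 4 members are shown because these genes carry the contrasts above: Ndufa4 with the largest difference of the well expressed members, Cox6a1 as the ubiquitous isoform, and Ndufa11 and Atp5e, which were higher in HIM-melanoma in all 6 comparisons. The sequences are from RefSeq (GRCm38.p6), 5′ to 3′ on the strand of the gene, and end before the transcribed part. Capitals mark matches to motifs of NRF1 or ETS factors, including GABP, which are known to act on many nuclear genes of oxidative phosphorylation.
Ndufa4, chr6:11907498-11907650, minus strand: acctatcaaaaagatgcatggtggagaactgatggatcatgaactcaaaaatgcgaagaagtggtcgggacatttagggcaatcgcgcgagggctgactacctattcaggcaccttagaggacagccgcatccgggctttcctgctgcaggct
Cox6a1, chr5:115348982-115349158, minus strand: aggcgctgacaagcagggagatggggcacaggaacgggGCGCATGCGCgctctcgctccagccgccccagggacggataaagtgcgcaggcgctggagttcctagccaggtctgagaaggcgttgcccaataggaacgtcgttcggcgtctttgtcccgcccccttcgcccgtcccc
Ndufa11, chr17:56717562-56717761, plus strand: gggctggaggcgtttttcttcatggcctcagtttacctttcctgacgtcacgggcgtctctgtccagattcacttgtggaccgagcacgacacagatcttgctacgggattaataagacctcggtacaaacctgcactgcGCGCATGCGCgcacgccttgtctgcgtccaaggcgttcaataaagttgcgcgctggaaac
Atp5e, chr2:174464106-174464301, minus strand: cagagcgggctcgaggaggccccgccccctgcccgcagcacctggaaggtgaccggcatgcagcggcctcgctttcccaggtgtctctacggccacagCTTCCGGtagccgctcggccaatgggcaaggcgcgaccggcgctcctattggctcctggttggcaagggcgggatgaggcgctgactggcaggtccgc

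Windows of 300 bases (250 before and 50 after the start) were found for 65 of the 80 tested nuclear members and for 27025 genes in all. On either strand, the NRF1 core GCATGCGC occurred in the windows of 10 members (15.4%), compared with 3.05% of all genes, the ETS motif CCGGAAG in 16 (24.6%, compared with 9.93%), the YY1 motif AAGATGGC in 10 (15.4%, compared with 3.19%) and the E-box CACGTG in 6 (9.23%, compared with 8.09%). At least 1 of these 4 motifs occurred in the windows of 34 of the 65 members, and the share of all genes is not given here. The 27025 genes were not limited to the 15247 tested genes, and shares among tested genes were not computed. The window of Sdhb held the NRF1 core, and those of Sdhb and Cox6a1 held the ETS motif as well. In the stretch of Ndufa4 shown none of these letters occur, and a match or its absence is a description of the sequence only.

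The mitochondrial genes did not follow D4M. WT31 and D4M differed by a median log2 fold change of 0.06 over the 13 genes and 0 were called (limma), with 0 at an unadjusted p under 0.05 and 0 called by edgeR or DESeq2, where 76.1% of all tested genes were called. At an unadjusted p under 0.05, 1 gene was lower in WT31 without D4M replicate 1 and HCmel12 replicate 4, and 1 was higher after centring by length, neither past the adjusted threshold. In relation to D4M, B16F10 luc2 had a median of -0.41 with 7 of 13 called lower (38.9% of all tested genes) and RET a median of -0.31 with 6 called lower (38.3%). In relation to HCmel12, B16F10 luc2 had -0.55 with 9 called lower (33.8%) and RET -0.35 with 6 called lower (33.3%). Of the 13 genes, those called lower in B16F10 luc2 than in D4M numbered 7 with edgeR, 9 without D4M replicate 1 and HCmel12 replicate 4, and 10 with DESeq2 and after centring by length, with 0 called higher in each case. Those called lower in RET numbered 6 to 8 in relation to D4M and 5 to 7 in relation to HCmel12 under the same settings. The medians of RET depended on single libraries: in relation to D4M the median was -0.18 without RET replicate 2 and -0.21 without D4M replicate 4, and in relation to HCmel12 it was -0.22 without either RET replicate 2 or HCmel12 replicate 4. After centring by length the median of RET in relation to D4M was -0.57. For WT31 and D4M leaving out 1 library gave -0.01 (without D4M replicate 5) to 0.18 (without WT31 replicate 5), so that this median had no stable sign. WT31 had a median of 0.69 in relation to B16F10 luc2 and 0.51 in relation to RET, each with 9 called higher (36.4% and 36.8%) and 0 lower. B16F10 luc2 was the lowest line for 9 of the 13 genes (69.2%), compared with 18% of all tested genes.

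The remaining comparisons gave few calls. Of all tested genes, 70.4% were called between WT31 and HCmel12, 51.5% between B16F10 luc2 and RET and 72.5% between D4M and HCmel12. WT31 and HCmel12 differed by a median of 0.04 (-0.02 with DESeq2's test, and -0.06 to 0.20 without HCmel12 replicate 2 and without HCmel12 replicate 4) and by 1 called gene, mt-Nd3, lower in WT31 by a log2 fold change of -0.45. After centring by length mt-Nd3 was not called (-0.13, limma, adjusted p = 0.394) and mt-Nd4l was called higher in WT31 (0.46, adjusted p = 0.0173). B16F10 luc2 lay at -0.18 in relation to RET with mt-Nd3 (-0.43) and mt-Co3 (-0.46) called lower, and at -0.32 without RET replicate 2, -0.07 without B16F10 luc2 replicate 5 and -0.10 without RET replicate 4 or 5. D4M lay at -0.13 in relation to HCmel12, a sign that turned to 0.07 after centring by length and without D4M replicate 1 and HCmel12 replicate 4, and to 0.02 without HCmel12 replicate 4 alone. With any other single library left out it lay between -0.23 (without D4M replicate 4) and -0.05 (without D4M replicate 5), and mt-Cytb was called higher in D4M (0.39, limma, adjusted p = 0.0428). That call was lost without any one of D4M replicates 2 and 4 and HCmel12 replicates 2, 3 and 5 (0.30 to 0.38), and with edgeR (0.38).

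By complex, all 7 mitochondrial genes of complex I and 2 of 3 of complex IV passed the test over the 5 lines, while mt-Co2 of complex IV and those of complexes III and V did not. mt-Cytb had an adjusted p of 0.20, mt-Atp8 of 0.266, mt-Co2 of 0.382 and mt-Atp6 of 0.645 in limma's F test. In complex I all 7 genes were called higher in WT31 than in B16F10 luc2, with log2 fold changes between 0.62 (mt-Nd1) and 1.06 (mt-Nd2 and mt-Nd3). In complex IV mt-Co1 (0.78) and mt-Co3 (0.99) were called higher in WT31 than in B16F10 luc2.

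mt-Nd3 had the largest difference of the mitochondrial genes. It was at 307, 281, 340.0, 305 and 298 CPM in B16F10 luc2, 408, 302, 369, 508 and 506 CPM in RET, and 583, 714, 754, 598 and 559 CPM in WT31. D4M had 637, 751, 713, 812 and 741 CPM and HCmel12 768, 711, 721, 1315 and 970.4 CPM. B16F10 luc2 and RET overlapped and lay below the other lines, which overlapped with each other. HCmel12 exceeded B16F10 luc2 by 1.51 (SE 0.14, log2), or 2.85-fold (limma, adjusted p = 5.2e-10).

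mt-Co3, a core subunit of complex IV, was at 3082, 2513, 3055, 2562 and 1992 CPM in B16F10 luc2 and at 3897, 2784, 3387, 4690 and 3493 CPM in RET. WT31 had 5950, 5526, 5789, 4438 and 4452 CPM, D4M 4484, 4918, 5211, 5644 and 3734 CPM, and HCmel12 6036, 4254, 4778, 8961 and 5602 CPM. B16F10 luc2 lay below every library of WT31, D4M and HCmel12 and overlapped with RET, and HCmel12 exceeded it by 1.13 (SE 0.16, log2), or 2.20-fold.

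mt-Nd2 was at 1654, 1609, 1964, 1754 and 1278 CPM in B16F10 luc2 and at 1900, 1048, 1626, 2348 and 2279 CPM in RET. WT31 had 4082, 3367, 3763, 3477 and 2597 CPM, D4M 2994, 2951, 2765, 4118 and 2697 CPM, and HCmel12 3609, 2624, 3133, 4762 and 2566 CPM. All libraries of B16F10 luc2 and RET lay below all others. WT31 exceeded B16F10 luc2 by 1.06 (SE 0.19, log2). mt-Co1, the catalytic subunit of complex IV, was at 5778 ± 1032 CPM in B16F10 luc2, 6222 ± 1267 CPM in RET, 8719 ± 2395 CPM in HCmel12, 9938 ± 1791 CPM in WT31 and 10226 ± 2305 CPM in D4M, and D4M exceeded B16F10 luc2 by 0.81 (SE 0.18, log2).

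**Figure D5:**
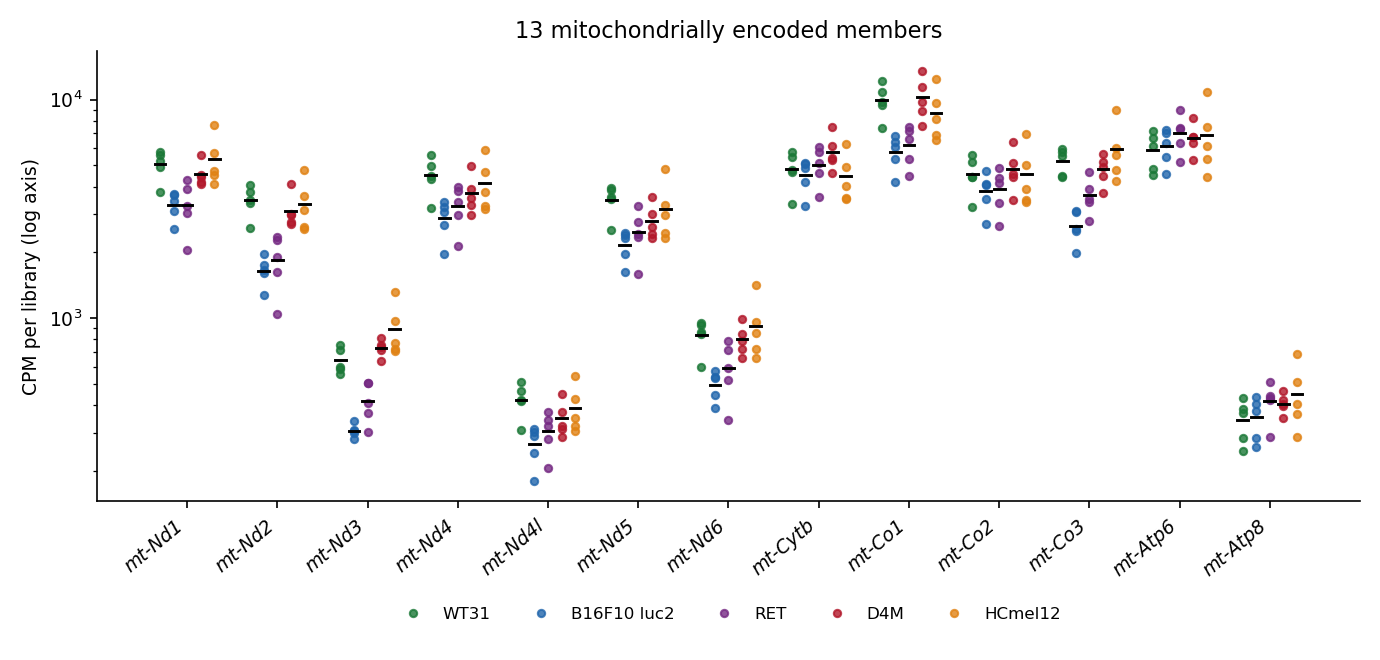
CPM of the 13 mitochondrial members per library on a log axis, by line. Points are libraries and black bars means. mt-Nd2 and mt-Nd3 are lower in B16F10 luc2 and RET than in the other lines without overlap, and mt-Co3 is so in B16F10 luc2 but overlaps in RET, whereas mt-Atp6, mt-Atp8, mt-Co2 and mt-Cytb overlap in all 5 lines.

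The make-up of the mitochondrial RNA differed as well. Of the summed TPM of the 13 genes, mt-Nd3 took 3.45% in B16F10 luc2 and 4.05% in RET, compared with 5.29% in WT31, 6.06% in D4M and 6.93% in HCmel12. mt-Atp6, a proton channel subunit of complex V, took 22.3% in B16F10 luc2 and 22.6% in RET, compared with 15.8% in WT31, 17.5% in D4M and 17% in HCmel12. Thus genes transcribed from one precursor did not keep one ratio across the lines. More than 50% of the 31-base sequences of 7 mitochondrial genes (mt-Nd3, mt-Nd4, mt-Nd4l, mt-Co1, mt-Co2, mt-Co3 and mt-Atp6) also occur in transcripts of other genes, mostly nuclear copies of mitochondrial DNA, between which the estimated counts divide reads. The 20 genes that shared most with them together had 487 ± 140 CPM in B16F10 luc2, 555 ± 220 CPM in RET, 835 ± 260 CPM in WT31, 852 ± 410 CPM in HCmel12 and 857 ± 140 CPM in D4M. Their part in these differences was not tested.

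The comparison of HIM-melanoma with LM-melanoma asked for genes that differ in one direction in all 6 comparisons of WT31, B16F10 luc2 and RET with D4M and HCmel12. This was the case for 9 of 93 members, all higher in HIM-melanoma, compared with 6.53% of all tested genes called higher in this way. The members' share lies near this background. The 9 genes are Ndufa11, Ndufb7, Ndufb11 and Ndufv3 of complex I, Uqcr11 of complex III, and Atp5c1, Atp5e, Atp5g3 and Atp5l of complex V. None was uniformly lower by limma, edgeR or DESeq2 over the 25 libraries, also at an unadjusted p under 0.05, beside 6.4% of all tested genes, and 1 was so at an unadjusted p under 0.05 without D4M replicate 1 and HCmel12 replicate 4. The 6 comparisons share their lines, and 5 members were uniformly higher with DESeq2, 6 with edgeR and 17 on the log2(TPM + 1) scale. The shares of all tested genes are not given here for these settings. After centring by length 13 members were uniformly higher, beside 6.24% of all tested genes.

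Except in Ndufa11, each line of HIM-melanoma differed less from HCmel12 than from D4M in these genes. Over the 6 comparisons the log2 fold changes ran from 0.32 to 0.67 for Ndufa11, 0.27 to 0.96 for Ndufb7, 0.20 to 0.78 for Ndufb11 and 0.24 to 0.73 for Ndufv3. They ran from 0.22 to 0.70 for Uqcr11, 0.23 to 1.14 for Atp5e, 0.16 to 0.89 for Atp5g3, 0.34 to 0.56 for Atp5c1 and 0.17 to 0.39 for Atp5l. Ndufa11, which is known to stabilise complex I, was at 60.3 ± 1.80, 70.7 ± 6.86 and 63.7 ± 4.20 CPM in WT31, B16F10 luc2 and RET, compared with 48.5 ± 3.78 CPM in D4M and 44.4 ± 5.09 CPM in HCmel12. Atp5c1, the γ subunit that forms the central stalk, was at 412 ± 31, 453 ± 19.5 and 428 ± 28.9 CPM in the lines of HIM-melanoma and at 306 ± 9.47 and 325 ± 10.8 CPM in D4M and HCmel12. The weakest call was that of Atp5l in WT31 in relation to HCmel12 (limma, adjusted p = 0.0489).

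Genes around the complexes did not share one pattern with the subunits. Of 46 tested assembly factors, 28 were called higher and 5 lower in B16F10 luc2 than in D4M. These counts were 30 and 7 in RET, but 20 and 13 in WT31. D4M was the lowest line for 22 of the assembly factors (47.8%), compared with 26.4% of all tested genes. Over all tested genes 38.8% were called higher and 38.9% lower in B16F10 luc2, 38.8% and 38.3% in RET, and 37.5% and 38.6% in WT31 than in D4M. The proteins of the mitochondrial ribosome, which translates the 13 mitochondrial members, were lowest in WT31 for 43 of 78 genes. D4M was the lowest line for 17 of them (21.8%), near the 26.4% of all tested genes. WT31 had 18 of these ribosomal proteins called higher and 33 lower than D4M, whereas B16F10 luc2 had 54 and 6 and RET 55 and 7. As a comparison outside the mitochondrion, 80 tested cytosolic ribosomal proteins were lowest in WT31 for 49 and in D4M for 2 (2.5%). The share of all tested genes lowest in WT31 is not given here, so the counts for WT31 have no background.

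Of the 10 tested regulators, Ppargc1a, Perm1 and Ppargc1b had the widest ranges, while over all 10 the range of the line means had a median of 0.65 (log2), compared with 0.72 over the nuclear members. Ppargc1a, the coactivator of mitochondrial biogenesis, was at 2.88 ± 0.53 CPM in D4M, 31.5 ± 6.3 CPM in WT31, 45.5 ± 6.5 CPM in RET, 56.2 ± 23 CPM in HCmel12 and 165 ± 24 CPM in B16F10 luc2, which exceeded D4M by 5.84 (SE 0.37, log2). Ppargc1b was at 1.61 CPM in D4M, 2.15 CPM in WT31 and between 6.02 and 8.08 CPM in the other lines (2.36 for RET over D4M, SE 0.18). Nrf1 lay between 40.1 CPM in D4M and 63.5 CPM in B16F10 luc2 (0.66, log2) and Esrra between 30.1 CPM in D4M and 45.2 CPM in RET (0.59), while Gabpa was highest in WT31 at 89.6 CPM and lowest in RET at 68.5 CPM (0.39).

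Genes that act on mitochondrial DNA and RNA had their own order. Tfam, which packs mitochondrial DNA and starts its transcription, was at 35.0 CPM in D4M, 36.7 CPM in WT31, 48.2 CPM in HCmel12, 60.7 CPM in RET and 64.9 CPM in B16F10 luc2 (0.89 for B16F10 luc2 over D4M, SE 0.05). Its 2 highest lines were the lines with the lowest summed level of the mitochondrial members. Polrmt, the mitochondrial RNA polymerase, lay between 29.7 and 33.8 CPM and was not called over the 5 lines (limma's F test, adjusted p = 0.0607). In single comparisons it was called lower in WT31 than in D4M (-0.18, limma, adjusted p = 0.0326) and higher in D4M than in HCmel12 (0.19, adjusted p = 0.0237). Lrpprc, which stabilises mitochondrial mRNA, was highest in HCmel12 at 130.5 CPM and lowest in WT31 at 88.4 CPM (0.56). Of the 18 tested genes for mitochondrial DNA copying and transcription, D4M was the lowest line for 11 (61.1%), compared with 26.4% of all tested genes.

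Among the partners of the chain, Cycs, which encodes cytochrome c, was at 232 CPM in B16F10 luc2 and 217 CPM in RET, compared with 93.7 CPM in D4M, 88.2 CPM in HCmel12 and 78.4 CPM in WT31 (1.56 for B16F10 luc2 over WT31, SE 0.06). Cs, the citrate synthase, varied little, between 448 CPM in WT31 and 590 CPM in RET (0.40). Of the 13 tested enzymes of the tricarboxylic acid cycle, 11 were called higher and 1 lower in B16F10 luc2 than in D4M. Over all tested genes these shares were 38.8% and 38.9%. In D4M, 4 of the enzymes were called higher and 6 lower than in HCmel12, which is near the 36.8% and 35.7% of all tested genes. Of 14 tested electron carriers and genes of ubiquinone synthesis, 3 were called higher and 8 lower in WT31 than in D4M, beside 37.5% and 38.6% of all tested genes, and 10 higher and 2 lower in RET than in D4M, beside 38.8% and 38.3%.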

How the data were processed

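The authors trimmed the reads with Trim Galore (0.6.4) and assigned them to GRCm38.p6 with kallisto (0.4.6 in the submitters' processing notes). They deposited estimated counts per gene without normalization for 25 libraries. The authors also deposited TPM, scaled by transcript length to a fixed total per library. Of these, 24 libraries were used here, since D4M replicate 1 had counts but no TPM among the data used. The annotation release and the step from transcripts to genes are not given in the sources used here.

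Kallisto divides reads among transcripts that match equally well, so the share of 31-base sequences found in other genes was computed for each member. Low counts were removed with filterByExpr (edgeR 4.0.16), so that 15247 of 55385 genes were tested. After TMM normalization, voom weights and a linear model of the line were computed with limma (3.58.1, under R 4.3.3) over the 25 libraries together. The 10 comparisons of lines and the F test were adjusted over all tested genes with the Benjamini-Hochberg method at 0.05, and p-values measure the spread between the replicates of 1 line each. CPM are TMM-scaled. Levels of different genes were compared in TPM only. Counts of 3 or fewer were taken as the floor, which covers counting error only.

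As alternatives, library sizes alone, DESeq2 size factors and test (DESeq2 1.42.0), edgeR's quasi-likelihood test, other filters, TPM with pseudocounts of 1 and 0.1, centring within 10 deciles of transcript length, stricter thresholds, a replicate block and leaving out each library were tried. DESeq2 and edgeR's test were run on rounded counts. Transcript length for the deciles was taken as counts per TPM. The scripts were tested on simulated data. Named members were all mitochondrial ones, per complex the 3 widest and the narrowest range of line means, members with isoform genes, complex II, members uniform over HIM-melanoma and LM-melanoma, and 10 named pathway genes with the 2 widest of each pathway list. The members and lists were chosen with earlier results of these data known.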

Additional observations from a re-analysis of the deposited data

Results flagged for a closer look

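In each line, the highest or lowest of the libraries was compared with the gap to its neighbour, which singles out about 1 in 20 groups by chance. Of 309 groups of libraries 14 had such a library.

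In WT31, replicate 5 was high for Sdhb (116 CPM, the others at most 103 CPM), Ndufa11 (63.4 CPM, the others at most 60.0 CPM) and the summed TPM of complex II (779 TPM, the others at most 713 TPM). WT31 replicate 1 was low for Uqcr10 (111 CPM), Atp5mpl (66 CPM) and Atp5g2 (106 CPM, the others at least 166 CPM). In B16F10 luc2, replicate 5 was low for Sdhd (134 CPM, the others at least 148 CPM) and replicate 2 was high for the summed TPM of complex II (1067 TPM). In D4M, replicate 4 was high for mt-Nd1 (5578 CPM, the others at most 4535 CPM) and mt-Nd2 (4118 CPM, the others at most 2994 CPM) and low for Sdha (223 CPM). In HCmel12, replicate 4 was high for Cox6a2 (7.23 CPM) and Ndufa4l2 (0.606 CPM), both scarce genes, and replicate 3 was low for Atp5c1 (306 CPM, the others at least 325 CPM).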

How the results depend on the processing

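The called members numbered 71 (WT31 and D4M), 80 (B16F10 luc2 and D4M), 78 (RET and D4M), 49 (WT31 and HCmel12), 76 (B16F10 luc2 and HCmel12), 65 (RET and HCmel12), 74 (D4M and HCmel12), 75 (WT31 and B16F10 luc2), 62 (WT31 and RET) and 42 (B16F10 luc2 and RET). When changes under 1 (log2) were not counted, they fell, in this order, to 4, 14, 13, 5, 5, 5, 9, 9, 6 and 1, the uniformly higher members from 9 to 0, those lower in D4M than in each other line from 54 to 1 and those higher in B16F10 luc2 and RET from 20 to 2. The shares of all tested genes past this limit are not given here, so these falls cannot be set against a background. The 9 uniformly higher members became 5 with DESeq2's Wald test, with its size factors and without a filter. They numbered 4 at an adjusted p under 0.01, and 17 on either TPM scale. The shares of all tested genes are not given here for these settings. After centring by length 9 instead of 20 members were counted as higher in B16F10 luc2 and RET. Centring also turned mt-Atp6 in RET in relation to WT31 from 0.26 to -0.070, neither value called, and the cause was not tested. With TMM-scaled CPM in place of TPM the ratios to D4M of 1.62, 1.83, 1.74 and 1.61 were 1.27, 1.57, 1.52 and 1.41, as shares of counts without TMM scaling (chosen after seeing the data) 1.48, 1.75, 1.75 and 1.6, and the last was 1.53 in TPM without Ndufa4, Ndufa4l2 and Cox7a2l. With DESeq2's size factors, WT31 had 9 members called higher and 39 lower in relation to HCmel12, and with library size alone B16F10 luc2 had 25 higher and 17 lower in relation to RET. Leaving out 1 library at a time gave 5 to 10 uniformly higher members (5 without RET replicate 1, HCmel12 replicate 1 or HCmel12 replicate 3). The members higher in WT31 than in HCmel12 fell from 15 to 9 without WT31 replicate 5 or HCmel12 replicate 3, and those lower in RET than in D4M from 11 to 7 without RET replicate 2 or 3. mt-Atp8 in HCmel12 in relation to WT31 (0.35) was called with DESeq2's Wald test (0.41) and without HCmel12 replicate 2 (0.50) and was 0.18 without HCmel12 replicate 4, and mt-Co2 in D4M in relation to B16F10 luc2 (0.32) after centring by length (0.55), with 0.20 without B16F10 luc2 replicate 5 and 0.44 without D4M replicate 5. mt-Cytb in D4M in relation to HCmel12 lost its call with library size alone (0.22), on the TPM scale (0.32) and with 2 lines only (0.36). The replicate numbers did not pair the samples (1 of 50 correlations over 0.1), and the replicate block gave 71, 83, 75, 46, 74, 62, 72, 74, 61 and 39 called members and 6 uniformly higher ones. When D4M replicate 1 and HCmel12 replicate 4, chosen after seeing the data, were left out, all 105 results compared between settings were counted as the same. Calls of single members still changed. The mitochondrial members called lower in B16F10 luc2 fell from 9 to 7 in relation to HCmel12 and rose from 7 to 9 in relation to D4M. The absence of the scarce isoforms cannot be told from levels at or below 3 counts, and other effects of depth were not tested.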

Other observations

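Some genes around the chain differed by more than the median range of the nuclear members (0.72, log2). Suclg2, the GTP-forming subunit of succinyl-CoA synthetase, had no count in HCmel12, which allows 0.121 CPM, and was at least 520-fold higher in WT31 (62.9 CPM), 1348-fold in B16F10 luc2 (163 CPM), 1235-fold in RET (149 CPM) and 521-fold in D4M (63.0 CPM). Coq8a, a kinase-like protein of ubiquinone synthesis, was at 0.208 CPM in D4M and 8.17 CPM in RET (log2 fold change 5.19, SE 0.69). Perm1, a regulator of muscle mitochondria, was highest in D4M at 2.64 CPM, and the largest difference had a log2 fold change of 3.17. Top1mt, the mitochondrial topoisomerase, was at 33.1 CPM in HCmel12 and 5.51 CPM in D4M (2.57).

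The assembly factor Cox19 stood out in HCmel12 at 95.9 ± 8.0 CPM, compared with 21 to 25.7 CPM on average in the other lines (2.19, SE 0.07), and Sdhaf3, an assembly factor of complex II, was at 13.4 CPM in B16F10 luc2 and 3.95 CPM in D4M (1.76). In the mitochondrial ribosome Mrps6 was highest in D4M at 232 CPM and lowest in HCmel12 at 41.7 CPM (2.47), whereas Mrps33 was at 123 CPM in HCmel12 and 33.3 CPM in D4M (1.88). Hsd17b10, a subunit of mitochondrial RNase P, was also highest in D4M at 61.4 CPM and lowest in B16F10 luc2 at 19.4 CPM (1.67). Fastkd2, which binds mitochondrial RNA, was at 73.9 CPM in HCmel12 and 24.6 CPM in WT31 (1.59), Ssbp1, which coats single-stranded mitochondrial DNA, at 71.7 CPM in RET and 26.7 CPM in WT31 (1.42), and Dlst, a subunit of oxoglutarate dehydrogenase, at 296 CPM in B16F10 luc2 and 122 CPM in HCmel12 (1.28).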
